A study of Mus musculus with 16 samples.

Results

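The DNA replication and mitosis genes described here are a module of 46 genes, 29 that act in mitosis and 17 that act in DNA replication. They were listed by name, with earlier results of these data known, and each had to reach at least 10 counts summed over all tumors. All 46 of the 46 listed genes passed this minimum, out of 16817 genes that passed and 22298 genes in the count files. The RNA came from tumors of the abdomen in 615-line mice. The tumors grew from MFC cells (mouse forestomach carcinoma), a gastric cancer line that this strain accepts as its own tissue. All mice were 6 weeks old, of either sex, and all samples are labelled WT, and each mouse had 500000 MFC cells injected into the peritoneal cavity. The 8 control tumors came from mice given PBS, the vehicle, and the 8 IL-33 tumors from mice given interleukin-33 at 20 μg/kg, in both cases into the peritoneal cavity every 2 days. This cytokine belongs to the family of interleukin-1, is released from damaged cells and acts on immune cells through its receptor ST2, and the study asked how giving it locally changes the tumor and its surroundings. The labels number the tumors within a group but do not say whether each tumor came from a separate mouse, so the p-values measure the spread between these samples only. The study describes groups of mice of several sizes for this tumor model, some smaller and some larger than the groups of tumors here, and does not say which gave the RNA. If some tumors share a mouse, the p-values are too small. Total counts on genes ran from 14139268 to 24290794 in the control group and from 16569613 to 24288893 in the IL-33 group.

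A cell that divides first copies its DNA and then separates the copies. Before S phase, CDC6 and CDT1 load the MCM helicase onto replication origins, E2F transcription factors switch on the genes of replication, and ribonucleotide reductase and thymidylate synthase supply the DNA building blocks. Later, in G2 and M phase, FOXM1 and B-MYB with the MuvB complex switch on cyclin B, the mitotic kinases and the proteins of the spindle and the kinetochore. In tumors these transcripts are widely used as a measure of how many cells are cycling. In bulk RNA, fewer cycling cells and less of these RNAs per cell cannot be told apart. Levels below are CPM (counts relative to the library total, on the usual CPM scale), scaled with edgeR's TMM factors, which correct each library for its composition.

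IL-33 replicate 7 stood apart from the other 15 tumors in its makeup. The 10 genes listed for uterus and oviduct summed to 1504 CPM there, against 15.9 to 25.2 CPM (median 19.98) in the others, and all 10 had counts. The most abundant of them, Ovgp1, the oviduct-specific glycoprotein, was at 743 CPM. The 10 ovary genes summed to 519 CPM, against 11.2 to 26.4 CPM (median 20.3) elsewhere, led by Inha, an inhibin subunit, at 245 CPM. Foxl2, Fshr and Cyp19a1, which define ovarian granulosa cells, had counts in this tumor and were at 0 in the other 15. Genes of connective tissue, vessels and fat were high in this tumor too. The 10 fibroblast and smooth muscle genes summed to 15139.5 CPM against 663 to 6705 CPM (median 1379.9), led by the collagen gene Col3a1 at 4764 CPM. The 6 blood endothelium genes summed to 647 CPM against 88.5 to 213 CPM (median 108). Mesothelium and fat genes summed to 2763 CPM against 485 to 1852 CPM (median 690.3), led by Cfd, the adipocyte protein adipsin, at 1203 CPM. In every other tumor the most abundant gene of this list was Msln, which went the other way, at 74.5 CPM here. All other genes of the list were higher here than in any other tumor, among them the mesothelium genes Wt1 (112 CPM) and Upk3b (48.1 CPM). Leukocyte genes, led by the macrophage lysozyme gene Lyz2, were inside the range of the other tumors, with 1060.1 CPM against 441 to 1684 CPM. Testis germ cell genes summed to 2.34 CPM there and to at most 1.76 CPM elsewhere, with Prm2 and Tnp1 at 0 in all 16 tumors.

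The labelled line is a gastric carcinoma, and the epithelial genes gave a mixed answer. The 12 listed summed to 839.8 CPM in IL-33 replicate 7, against 217 to 2420.4 CPM (median 573) elsewhere. Of these 12 epithelial genes, 10 stayed under 10 CPM in each of the 15 tumors other than IL-33 replicate 7, among them Epcam, Krt18 and the claudins, and Cdh1, the E-cadherin gene, was the highest of these at up to 2.93 CPM. Cldn4 was at 0 in 14 of the 16 tumors. The keratin genes Krt8 and Krt19 were the exceptions, with control medians of 525 and 127 CPM. In IL-33 replicate 7 Epcam reached 79.6 CPM and Krt18 128 CPM, while Krt8 was at 181 CPM. Msln, the mesothelin gene, was at 366 to 1389 CPM in the other IL-33 tumors and at 74.5 CPM in IL-33 replicate 7.

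Control replicate 4 stood apart in another way. Its TMM factor was 0.64, the lowest of the 16, and its red cell precursor genes summed to 20009.5 CPM, the highest of the 16, led by the hemoglobin gene Hba-a1 at 13350.2 CPM. It also had the highest epithelial sum of the 16, 2420.4 CPM, where the next, IL-33 replicate 6, had 1527 CPM. Its mesothelium and fat sum, 1852 CPM with Msln alone at 1233 CPM, was the highest of the 15 tumors other than IL-33 replicate 7. IL-33 replicate 7, with the highest TMM factor at 1.24, had 2291 CPM of the red cell precursor genes, whose median over all tumors but that one was 261 CPM. Results are therefore given with all 16 tumors and with 15, without IL-33 replicate 7, and the effect of leaving out control replicate 4 as well is given where it matters.

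No gene of the module passed edgeR's test between the IL-33 and the control tumors. When genes were called by edgeR's quasi-likelihood test at an unadjusted p under 0.05, 0 of 29 mitosis genes and 0 of 17 replication genes were called, against 11.2% of all 16817 genes tested (9.99% higher and 1.17% lower with IL-33). That share includes genes with few counts. With edgeR's filterByExpr, which drops such genes, 498 genes were higher and 142 lower of 12800 tested, again with 0 members. Without IL-33 replicate 7 the counts were again 0 of 29 and 0 of 17, against 4.19% of all genes (1.87% higher and 2.33% lower). At an adjusted p under 0.05 edgeR called 0 genes of the 16817 (0%) in either fit, where the unadjusted p called 1876 genes with 16 tumors and 705 with 15. DESeq2 called 0 genes at its adjusted p and 691 (4.11%) unadjusted with 16 tumors, 2.52% higher and 1.59% lower with IL-33, none of them members. On the 15 tumors without IL-33 replicate 7, DESeq2 called 1 gene at its adjusted p, the heme synthesis gene Alas2 (0.00595%), and 673 genes (4%) unadjusted, 1.68% higher and 2.32% lower, with E2f1, which was lower, as the only member among them. For 0 of the 16817 genes (0%) did the 8 control and 8 IL-33 tumors fail to overlap.

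The fitted changes of both classes lay close to 0, and their direction depended on the tumors and the tool used. With 16 tumors the median log2 fold change, IL-33 against control, was -0.07 over the mitosis genes, with 22 of 29 below 0, and -0.11 over the replication genes, with 15 of 17 below 0, against 0.06 over all genes tested. Leaving out IL-33 replicate 7 turned the medians to 0.08 and 0.04, against -0.01 over all genes. With control replicate 4 left out as well, they were 0.04 and -0.04, and with control replicate 4 alone left out -0.13 and -0.17. In limma voom with sample quality weights, which give less weight to tumors that vary more, they were 0.08 and 0.01 with all 16 tumors. Every one of the 46 fitted changes was higher without IL-33 replicate 7, by a median of 0.16 on the log2 scale, and 28 changed sign, 19 of the mitosis genes and 9 of the replication genes. The 19 were Mki67, Top2a, Cdk1, Ccnb2, Ccna2, Aurka, Plk1, Bub1, Bub1b, Ttk, Kif11, Kif2c, Prc1, Tpx2, Cenpe, Ndc80, Nuf2, Foxm1 and Mybl2, and the 9 were Cdt1, Mcm2, Mcm3, Mcm4, Mcm6, Pcna, Pola1, Rrm1 and Tk1. The 95% intervals of the 15-tumor changes reached from -0.75 to 0.67 over the mitosis genes and from -0.59 to 1.21 over the replication genes. They differed in width by gene, and the narrowest was that of E2f1 (-0.36 to 0.03) and the widest that of Rrm2 (-0.32 to 1.21).

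**Figure D1:**
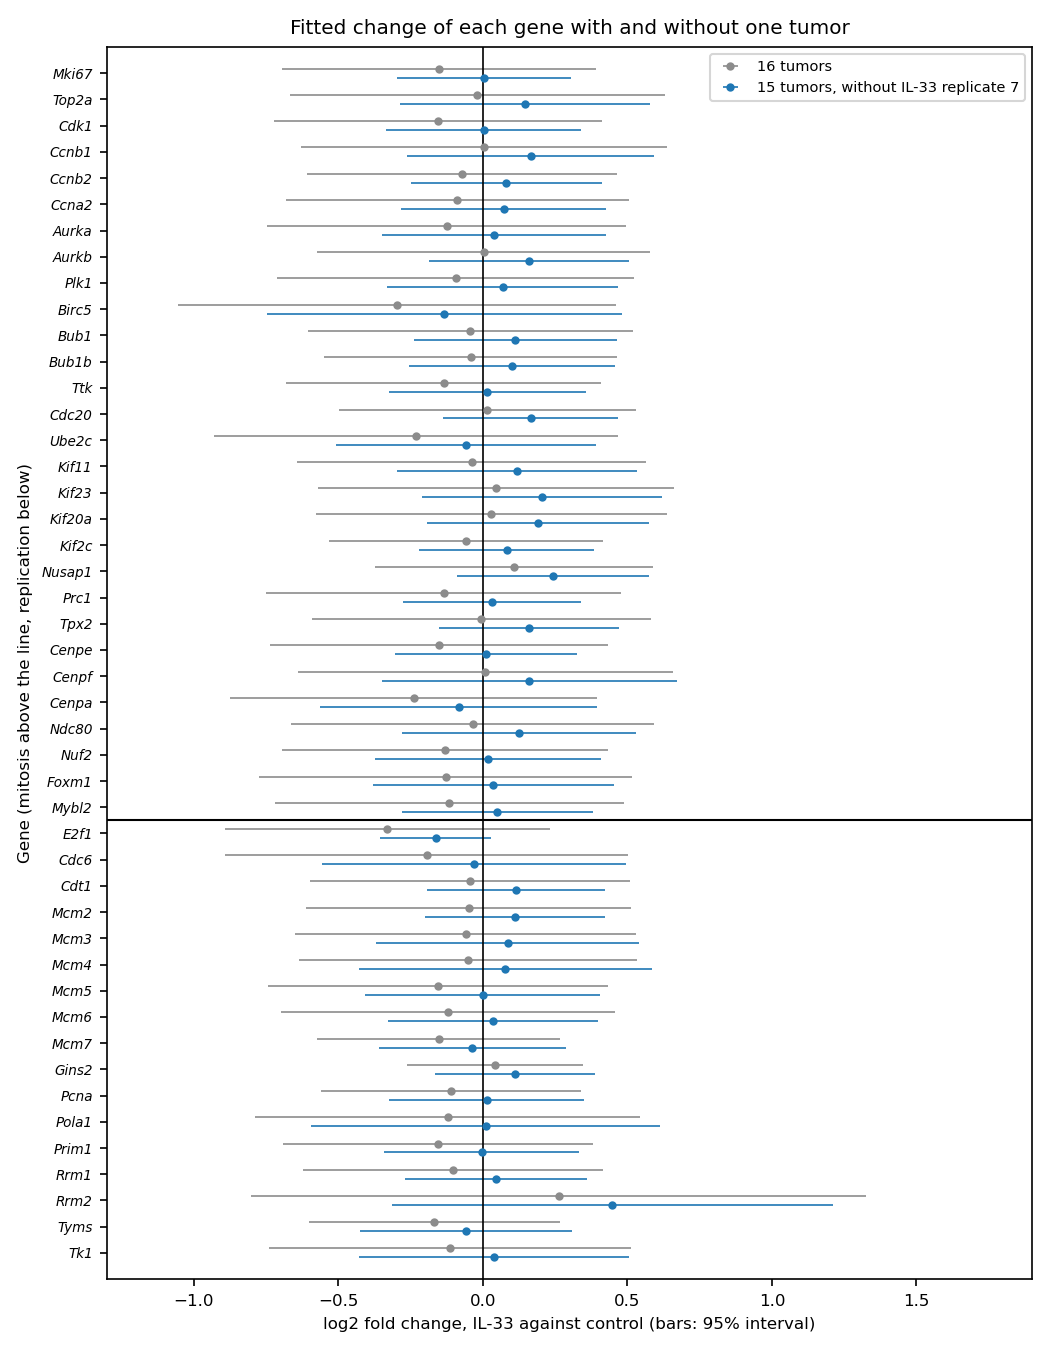
Fitted log2 fold change (IL-33 against control, horizontal axis) of each of the 46 genes, with 95% confidence intervals as bars, from edgeR with 16 tumors (gray) and with 15 tumors, without IL-33 replicate 7 (blue). All intervals include 0, and all 46 blue points lie to the right of the gray ones.

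Mki67 and Top2a are the transcripts most often read as marks of proliferation. Mki67 encodes the Ki-67 protein that coats mitotic chromosomes and lies at chr7:135689784-135716361 on the minus strand (GRCm38). Its level was 211, 278 and 358 CPM (lowest, median and highest) in the control tumors and 55.4, 263 and 367 CPM in the IL-33 tumors. Only IL-33 replicate 7 lay below the control range, and 3 of 8 tumors given IL-33 exceeded the control median. The fitted log2 fold change was -0.15 ± 0.26 (SE; adjusted p = 0.890 in edgeR's quasi-likelihood test), and 0.00 ± 0.14 without IL-33 replicate 7. Top2a encodes topoisomerase IIα, which untangles the replicated chromosomes. It was at 141, 309 and 480 CPM in the control group and at 55.2, 310.3 and 461 CPM in the IL-33 group, so the medians nearly coincided. Its fitted log2 fold change was -0.02 ± 0.31 (adjusted p = 0.993 in edgeR), and 0.14 ± 0.20 without IL-33 replicate 7.

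The cyclins and CDK1 drive the entry into mitosis. Cdk1, the kinase itself, was at 84.4, 112 and 157 CPM in the control tumors and at 22.5, 106 and 172 CPM in the IL-33 tumors. Apart from IL-33 replicate 7, the IL-33 tumors began at 94.5 CPM, inside the control range. The log2 fold change of Cdk1 was -0.15 ± 0.27 (adjusted p = 0.895 in edgeR), and 0.00 ± 0.16 without that tumor. Ccnb1, the cyclin B1 that activates CDK1, was at 36.6, 92.3 and 127 CPM in the control group and at 17.3, 94.5 and 124 CPM in the IL-33 group. Here each group had 1 low tumor, control replicate 4 and IL-33 replicate 7. The log2 fold change of Ccnb1 was 0.00 ± 0.30 (adjusted p = 0.999 in edgeR), 0.16 ± 0.20 without IL-33 replicate 7 and -0.11 without control replicate 4. For the remaining cyclins of the module, Ccnb2 (cyclin B2) and Ccna2 (cyclin A2), the control medians were 64.1 and 173 CPM and the IL-33 medians 66.5 and 175 CPM.

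The mitotic kinases and the chromosomal passenger complex place and correct the spindle attachments. Aurkb, the kinase of that complex, was at 43.2, 66.8 and 94.9 CPM in the control tumors and at 13.8, 72.9 and 92.9 CPM in the IL-33 tumors. Plk1, the polo kinase of centrosomes and kinetochores, was at 50.4, 88.9 and 122 CPM and at 16.1, 87.8 and 119 CPM. The groups overlapped for both, and Aurka, the centrosome kinase, had medians of 60.6 and 59.1 CPM. Birc5 encodes survivin, which anchors the passenger complex at the centromere, and it varied most between tumors within this set. It was at 38.6, 63.9 and 155 CPM in the control group and at 12.8, 60.3 and 126 CPM in the IL-33 group. Its highest level was in control replicate 4, a tumor that was the lowest control for Mki67, Top2a and Ccnb1, and the next highest in IL-33 replicate 3. With 16 tumors Birc5 had the lowest fitted log2 fold change of the mitosis genes, -0.30 ± 0.36 (adjusted p = 0.825 in edgeR), and it was -0.13 ± 0.29 without IL-33 replicate 7. Without control replicate 4 it was -0.08, where Foxm1 was lowest with -0.24, and with both tumors left out it was 0.08.

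The spindle checkpoint holds the anaphase-promoting complex back until every chromosome is attached. Bub1b, which encodes the checkpoint protein BUBR1, was at 34.5, 64.6 and 78.5 CPM in the control tumors and at 17.8, 60.3 and 80.6 CPM in the IL-33 tumors. Cdc20, the activator of the anaphase-promoting complex, was at 71.7, 103 and 122 CPM and at 25.6, 102 and 163 CPM. Its log2 fold change was 0.02 ± 0.24 (adjusted p = 0.992 in edgeR), and 0.17 ± 0.14 without IL-33 replicate 7. Ube2c, the ubiquitin-conjugating enzyme of the same complex, shared the pattern of Birc5. It was at 122, 186 and 357 CPM in the control group, the highest again in control replicate 4, and at 25.9, 176 and 302 CPM in the IL-33 group. The checkpoint kinases Bub1 and Ttk had control medians of 34.9 and 18.9 CPM, and IL-33 medians of 37.6 and 18.9 CPM.

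The kinesins and spindle proteins build the spindle and divide the cell. Kif11, the motor that pushes the spindle poles apart, was at 37.0, 78.3 and 109 CPM in the control tumors and at 15.97, 77.6 and 109 CPM in the IL-33 tumors. Nusap1, a protein that bundles spindle microtubules, was at 19.3, 34.3 and 41.5 CPM and at 11.2, 38.2 and 43.9 CPM. It had the highest fitted log2 fold change of the mitosis genes with 16 tumors, 0.11 ± 0.23 (adjusted p = 0.923 in edgeR), and without IL-33 replicate 7, 0.24 ± 0.16 (95% interval -0.09 to 0.57). Without control replicate 4 it was 0.03. Kif23, the kinesin of the central spindle, had 0.05 ± 0.29 (adjusted p = 0.979 in edgeR), 0.20 ± 0.20 without IL-33 replicate 7 and -0.07 without control replicate 4. Its levels were 22.2, 49.5 and 73.7 CPM in the control group and 10.9, 61.2 and 70.6 CPM in the IL-33 group. The other genes of the set, Kif20a, Kif2c, Prc1 and Tpx2, had fitted log2 fold changes between those of Prc1 (-0.14 ± 0.29) and Kif20a (0.03 ± 0.29), which were 0.03 and 0.19 without IL-33 replicate 7.

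Centromere and kinetochore proteins join the chromosomes to the spindle. Cenpa, the histone variant that marks the centromere, was at 51.6, 78.5 and 158 CPM in the control tumors and at 17.2, 69.6 and 125 CPM in the IL-33 tumors. The highest tumor was control replicate 4, as for Birc5 and Ube2c. The log2 fold change of Cenpa was -0.24 ± 0.30 (adjusted p = 0.835 in edgeR), -0.08 ± 0.23 without IL-33 replicate 7, -0.05 without control replicate 4 and 0.11 without both. Cenpf, a large protein of the outer kinetochore, went the other way in that tumor. It was at 23.9, 83.9 and 115 CPM in the control group and at 19.3, 84.2 and 120 CPM in the IL-33 group, and the lowest control value was that of control replicate 4. Cenpe, a kinetochore motor, and Ndc80 and Nuf2, subunits of the complex that grips microtubules, had fitted log2 fold changes of -0.15 ± 0.28, -0.04 ± 0.30 and -0.13 ± 0.27, and of 0.01, 0.13 and 0.02 without IL-33 replicate 7.

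Foxm1 and Mybl2 encode the transcription factors FOXM1 and B-MYB, which switch on the mitosis genes. Foxm1 was at 53.4, 132 and 165 CPM in the control tumors and at 19.3, 117 and 158 CPM in the IL-33 tumors. Mybl2 was at 43.1, 57.0 and 77.8 CPM and at 9.54, 61.4 and 76.4 CPM. In IL-33 replicate 7 both were low by about the same factor, with the median of the other 7 IL-33 tumors 6.51-fold and 6.46-fold above it. Their fitted log2 fold changes were -0.13 ± 0.31 and -0.12 ± 0.29 (adjusted p = 0.932 and 0.936 in edgeR), and 0.04 ± 0.20 and 0.05 ± 0.16 without that tumor.

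E2f1 was the steadiest gene of the module over the 15 tumors other than IL-33 replicate 7. It encodes a factor that switches on the genes of S phase and lies at chr2:154559407-154569892 on the minus strand. Its level was 70.9, 81.1 and 96.9 CPM in the control tumors and 10.2, 71.5 and 77.6 CPM in the IL-33 tumors. Apart from IL-33 replicate 7, the lowest IL-33 tumor was at 66.1 CPM, so the groups overlapped between 70.9 and 77.6 CPM, and the control median was exceeded by 0 of 8 tumors given IL-33. The fitted log2 fold change was -0.33 ± 0.27, the lowest of the module (adjusted p = 0.701 in edgeR), and -0.16 ± 0.09 (95% interval -0.36 to 0.03; adjusted p = 0.966 in edgeR) without IL-33 replicate 7. In DESeq2 without that tumor its unadjusted p was 0.0441, with a log2 fold change of -0.17 ± 0.09 and an adjusted p of 0.999, where 4% of all genes were called at the unadjusted p. Over the 15 tumors its SD of log2 CPM was 0.15, the smallest of the 46 genes, while over the 16 it was 0.74 and the smallest was that of Gins2, 0.27.

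Cdc6 and Cdt1 license the origins of replication. Cdc6 was at 11.9, 27.2 and 41.4 CPM in the control tumors and at 4.73, 25.3 and 40.3 CPM in the IL-33 tumors. Its fitted log2 fold change of -0.19 ± 0.33 (adjusted p = 0.891 in edgeR) was the second lowest of the replication genes with 16 tumors, and it was -0.03 ± 0.25 without IL-33 replicate 7. Cdt1 was at 70.5, 80.6 and 126 CPM and at 18.4, 97.4 and 116 CPM. For Cdt1, 6 of 8 tumors given IL-33 exceeded the control median, though its fitted log2 fold change was only -0.04 ± 0.26 with all tumors (adjusted p = 0.977 in edgeR) and 0.11 ± 0.14 without IL-33 replicate 7.

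The MCM proteins form the ring of the replicative helicase, and GINS2 is part of the complex that activates it. Mcm2 was at 119.8, 218 and 268 CPM in the control tumors and at 41.0, 225 and 267 CPM in the IL-33 tumors. Mcm5, another of the 6 ring subunits, was at 114, 144 and 227 CPM and at 34.3, 158 and 221 CPM. Over the 6 Mcm genes and Gins2 the fitted log2 fold changes lay between -0.16 and 0.04, and between -0.04 and 0.11 without IL-33 replicate 7. Gins2 (chr8:120578633-120589304, minus strand) was the gene of the module least reduced in IL-33 replicate 7. Its level was 35.7, 41.3 and 57.7 CPM in the control group and 31.1, 45.6 and 66.5 CPM in the IL-33 group. Its fitted log2 fold change was 0.04 ± 0.14 (adjusted p = 0.958 in edgeR), and 0.11 ± 0.13 without that tumor.

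Pcna encodes the sliding clamp that holds the polymerases on DNA. It was at 154, 174 and 284 CPM in the control tumors and at 71.7, 183 and 299 CPM in the IL-33 tumors, and the highest tumors were control replicate 7 and IL-33 replicate 3. Pola1 and Prim1 encode the catalytic subunits of DNA polymerase α and primase, which start each new strand. Pola1 was at 7.74, 42.8 and 59.7 CPM and at 13.0, 40.3 and 52.2 CPM, and its lowest tumor was control replicate 4, not IL-33 replicate 7. The log2 fold change was -0.11 ± 0.21 for Pcna and -0.12 ± 0.32 for Pola1 (adjusted p = 0.911 and 0.938 in edgeR), and without IL-33 replicate 7 it was 0.01 ± 0.16 and 0.01 ± 0.29. Without control replicate 4 that of Pola1 was -0.28. For Prim1 the medians were 40.1 and 38.3 CPM.

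The genes of nucleotide supply held the most variable member. Rrm2 encodes the small subunit of ribonucleotide reductase, which limits the making of deoxyribonucleotides in S phase, and lies at chr12:24708241-24714146 on the plus strand. Its level was 109, 376 and 682 CPM in the control tumors and 21.5, 420 and 1009.6 CPM in the IL-33 tumors. The 2 highest tumors were IL-33 replicates 5 and 6, the latter at 958 CPM, and the next was control replicate 1. IL-33 replicate 6 was at the same time the lowest of the 7 remaining IL-33 tumors for Tyms, the thymidylate synthase gene, at 23.2 CPM, and for Cdc6, at 15.4 CPM. The fitted log2 fold change of Rrm2 was 0.26 ± 0.50, the highest of the module (adjusted p = 0.910 in edgeR), and 0.45 ± 0.36 without IL-33 replicate 7 (95% interval -0.32 to 1.21; adjusted p = 0.966 in edgeR). Without IL-33 replicate 5 it was 0.04, and without control replicate 4 it was 0.12. Rrm1, the large subunit of the same enzyme, did not share this spread, with 148, 243 and 307 CPM in the control group and 56.0, 236 and 296 CPM in the IL-33 group. Tyms was at 32.4, 39.4 and 53.9 CPM and at 17.1, 35.9 and 57.7 CPM, with a log2 fold change of -0.17 ± 0.21 (adjusted p = 0.831 in edgeR), and -0.06 ± 0.17 without IL-33 replicate 7. Tk1, the thymidine kinase of the salvage route, had medians of 68.8 and 67.6 CPM.

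**Figure D2:**
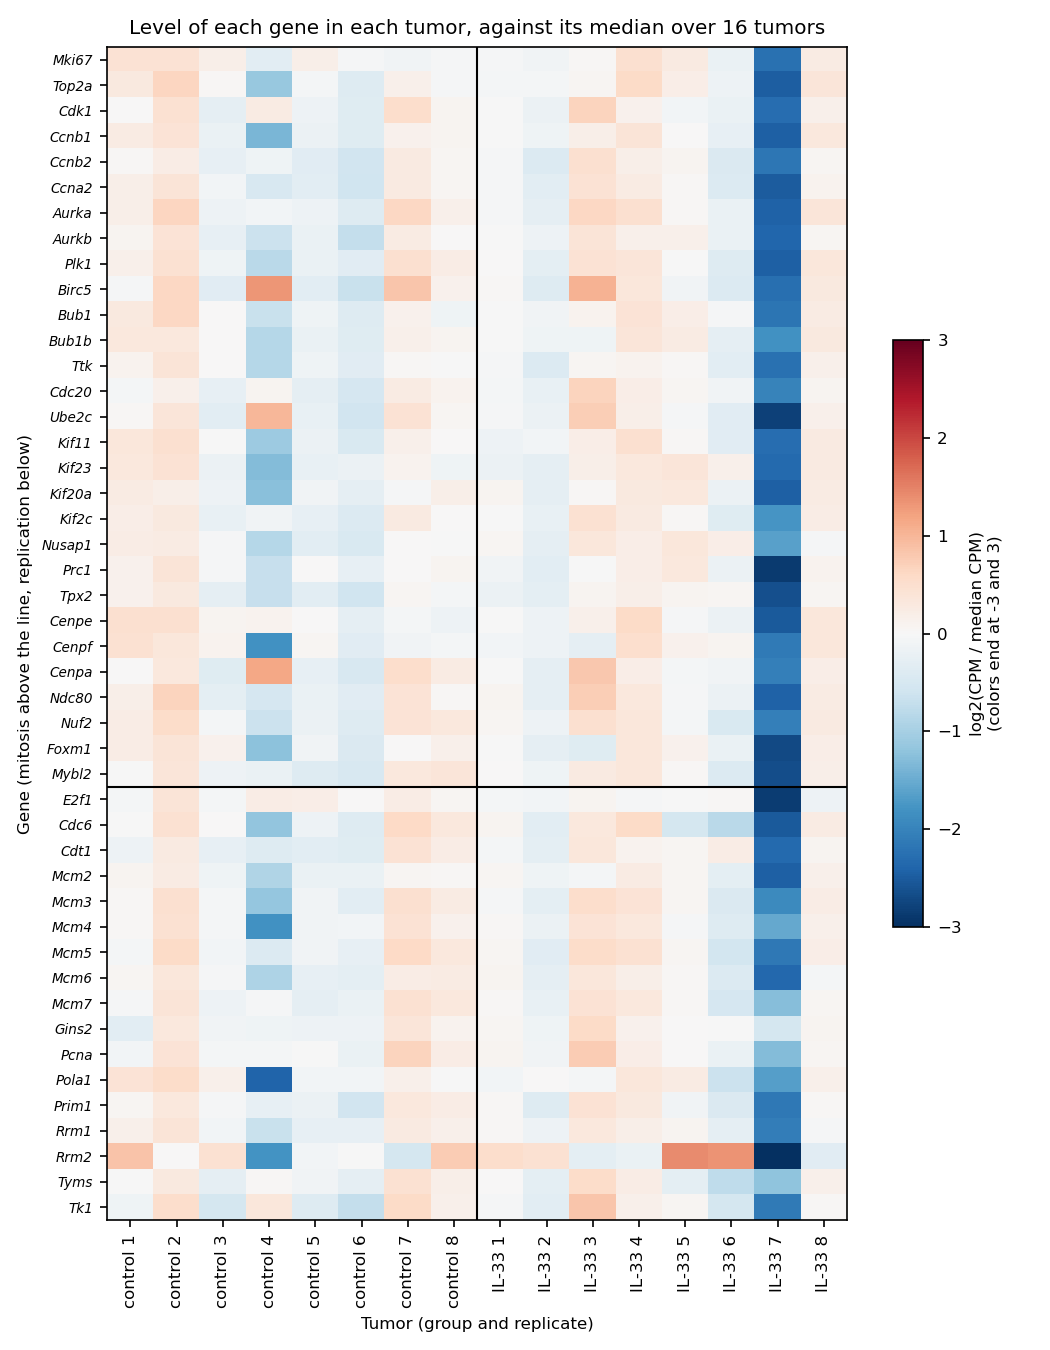
Level of each gene (rows) in each tumor (columns), colored by log2 of its CPM over its median CPM in the 16 tumors. IL-33 replicate 7 is low in nearly every row, control replicate 4 is low in some rows and high in Birc5, Ube2c and Cenpa, and Rrm2 is high in IL-33 replicates 5 and 6.

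As classes, both sets had overlapping levels in the control tumors and in the IL-33 tumors other than replicate 7. The level of a class in a tumor was the mean of its genes' log2 CPM. For the mitosis genes it was 6.27 ± 0.31 (SD, n = 8) in the control group, with 5.83, 6.28 and 6.72 as the lowest, median and highest tumor. In the IL-33 group it was 6.08 ± 0.87 (SD, n = 8), with 4.00, 6.34 and 6.62. Without IL-33 replicate 7, the lowest of these, the IL-33 mean was 6.38 ± 0.23 (SD, n = 7). For the replication genes the level was 6.59 ± 0.35 in the control group, 6.40 ± 0.76 in the IL-33 group and 6.65 ± 0.22 without that tumor. The difference between the group means was thus under 1 SD of the control tumors with or without IL-33 replicate 7. Control replicate 2 was the highest tumor for 17 of the 46 genes and IL-33 replicate 3 for 13, so the top of the range held tumors of both groups. Without IL-33 replicate 7 the lowest tumor was control replicate 4 for 26 genes and control replicate 6 for 14.

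**Figure D3:**
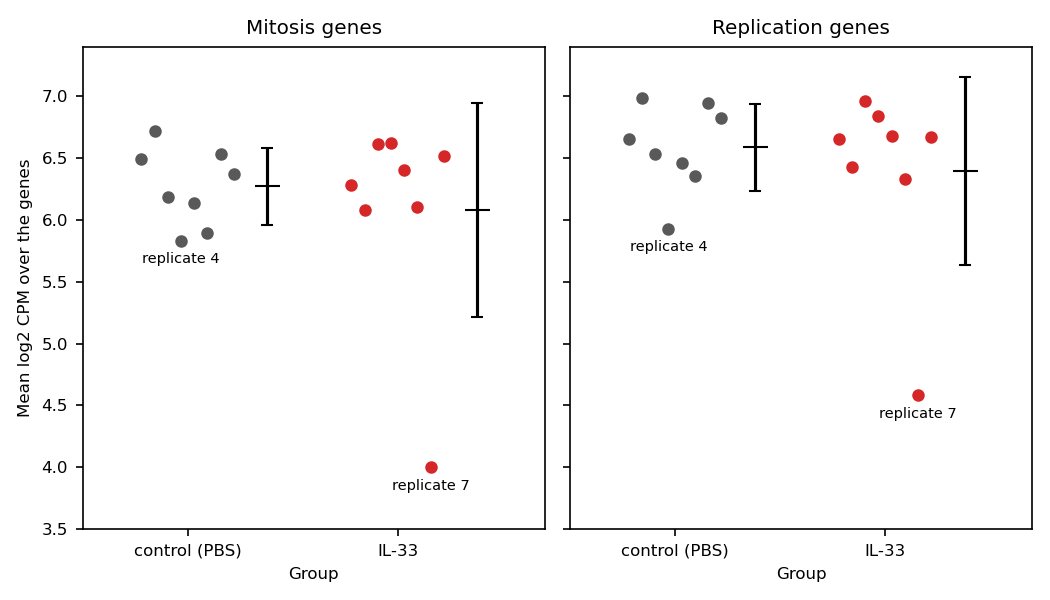
Mean log2 CPM over the 29 mitosis genes (left) and the 17 replication genes (right) in each tumor, by group, with the group mean and SD (8 tumors each) beside the points. IL-33 replicate 7, at 4.00 and 4.58, lies below all other tumors, and the remaining tumors of the groups overlap.

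IL-33 replicate 7 was the lowest of the 16 tumors for 29 of 29 mitosis genes and for 15 of 17 replication genes, the exceptions being Mcm4 and Pola1, which were lowest in control replicate 4. Over all genes tested it was the lowest tumor for 20.7%, and for 33.1% of the genes with a mean of at least 10 CPM. The median of the other 7 IL-33 tumors was 3.46-fold (Kif2c) to 7.27-fold (Prc1) above it for the mitosis genes, with a median of 5.43-fold. For the replication genes the factor ran from 1.48-fold (Gins2) to 23.9-fold (Rrm2), with a median of 4.51-fold. Replication genes with small factors were Tyms, Mcm7, Pcna and Mcm4, at 2.33-fold, 2.50-fold, 2.60-fold and 2.98-fold. The difference between the class levels, replication minus mitosis, was 0.58 log2 units in this tumor, the highest of the 16, against 0.10 to 0.46 in the others. The 46 genes together held 0.130% of its counts, against 0.235% in control replicate 4 and 0.396% to 0.690% in the other 14 tumors. The low levels stood beside the uterus, oviduct, ovary, stroma, endothelium and fat transcripts given above, and the part of these tissues in the low levels was not tested.

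Control replicate 4 was the highest tumor for some genes of the module and the lowest control for others. Birc5, Ube2c and Cenpa were the highest of all 16 tumors there, at 155, 357 and 158 CPM, while Pola1, Mcm4 and Cenpf, at 7.74, 30.3 and 23.9 CPM, were the lowest of the control group. Levels in that tumor also differed by exon length, taken as the number of bases in all annotated exons of a gene. A single transcript can be shorter than this. The 15 shortest members (1531 to 3993 bases) had a median of -0.24 log2 units relative to each gene's median over the tumors, and the 15 longest (5754 to 15433 bases) one of -0.69. Of the 15 shortest members, 4 were above their own median in that tumor, and of the 15 longest, 3. Among those against the order were the short genes Mcm4 (3589 bases) and Rrm2 (2771 bases), both low. Cenpa, which was high, was another by this measure (5860 bases), though its transcripts may be shorter than its joined exons. Over all genes with a mean of at least 10 CPM and lengths in the same ranges, the medians were 0.54 for 3834 short genes and -0.66 for 3591 long genes. The gap between short and long genes, 1.20 log2 units in this tumor, was next largest in IL-33 replicate 3 (0.57) and control replicate 7 (0.37), and was between -0.18 and 0.14 in the others. IL-33 replicate 7 had a gap of -0.09, and its 15 shortest and 15 longest members were alike low, at -2.23 and -2.26. The part of length in the levels of the single genes was not tested.

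The spread of the module over the tumors rested in large part on IL-33 replicate 7. The median SD of log2 CPM over the 46 genes was 0.67 with 16 tumors and 0.34 with 15, without IL-33 replicate 7, where the 9543 genes with a mean of at least 10 CPM had medians of 0.41 and 0.36 and all genes tested 0.57 and 0.45. Rrm2 had the largest SD over the 15 tumors, 0.81. With control replicate 4 left out as well, the highest tumor was 1.46-fold to 3.89-fold above the lowest, with a median over the genes of 1.93-fold. The top value was that of Rrm2, and Birc5 came next with 3.27-fold. Per base of exon, Rrm2 was also the most abundant transcript of the module, with a mean of 164 CPM per kilobase of exon, followed by Pcna with 78.4 and Ube2c with 72.4. The scarcest on this scale were the checkpoint kinase gene Ttk with 3.52, Pola1 with 4.50 and Cdc6 with 5.03. The scale counts all annotated exons, so a gene whose transcripts hold only part of them ranks too low.

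Other genes of the same pathways were not called either. Of 60 further mitosis genes outside the module, 0 had an unadjusted p under 0.05 in edgeR (11.2% of all genes) or in DESeq2 (4.11%), and 56 were lowest in IL-33 replicate 7. Their median log2 fold change was -0.06, with 49 below 0, and 0.09 without that tumor, with 48 above 0. The smallest p among them was that of Cdkn3, a phosphatase that acts on CDKs, at 10.1 CPM (control median) and 7.92 CPM (IL-33 median), with a log2 fold change of -0.43 ± 0.28 and an unadjusted p of 0.144 in edgeR (-0.28 ± 0.20 and 0.178 without IL-33 replicate 7). Next came Cenpm, a centromere protein, and Kif14, a kinesin of cytokinesis, with unadjusted p-values of 0.154 and 0.465 in edgeR. Of 63 further replication genes, 0 reached an unadjusted p under 0.05 in either tool, and 51 were lowest in IL-33 replicate 7. Their median log2 fold change was -0.12, with 52 below 0, and 0.01 without that tumor, with 35 above 0. Their smallest unadjusted p-values in edgeR belonged to Dctpp1, which clears damaged nucleotides (0.198), Orc6 of the origin recognition complex (0.314) and Pold2, a subunit of DNA polymerase δ (0.319).

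Genes that hold the cell cycle back, such as CDK inhibitors and members of the RB family, made up a list of 21. IL-33 replicate 7 was the lowest tumor for 7 of these 21 genes. It was the lowest for 20.7% of all genes tested and for 33.1% of those with a mean of at least 10 CPM. Of the 21 genes, 3 were highest in it, the CDK inhibitor genes Cdkn1c and Cdkn2b and the antiproliferative gene Btg2. The share of all genes highest in this tumor is not given. Btg2 was the 1 repressor of 21 with an unadjusted p under 0.05 in edgeR (11.2% of all genes in either direction). It was at 15.2, 25.2 and 28.4 CPM in the control tumors and at 21.4, 32.2 and 64.6 CPM in the IL-33 tumors, the highest being IL-33 replicate 7, and the groups overlapped. Its log2 fold change was 0.60 ± 0.20 (unadjusted p = 0.00894, adjusted p = 0.418 in edgeR), and 0.43 without IL-33 replicate 7 (unadjusted p = 0.0187, adjusted p = 0.966 in edgeR). Next were E2f5, a repressive E2F factor (unadjusted p = 0.0725 in edgeR), and Cdkn1b, the gene of the CDK inhibitor p27 (unadjusted p = 0.102 in edgeR). Cdkn1b was at 49.4 CPM in the control median and at 58.4 CPM in the IL-33 median.

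The promoters of the module were searched for the letters through which known cell cycle regulators act. RefSeq windows of the 250 bases before 1 annotated start of each gene (GRCm38.p6) were matched for 39 of the 46 genes, 24 mitosis and 15 replication genes, while Ccna2, Aurkb, Kif20a, Tpx2, Foxm1, Mcm4 and Gins2 had no entry. They were searched on both strands for the CHR element TTTGAA, at which the MuvB complex binds, for the CCAAT box, the site of NF-Y, and for the E2F sites TTCCCGC, TTTGGCGC and TTTCGCGC, where matches of the latter may overlap each other. TTTGAA was found in 8 of 24 mitosis promoters (33.3%) and 1 of 15 replication promoters (6.67%), against 16.3% of all 27025 windows. CCAAT was in 18 of 24 (75%) and 10 of 15 (66.7%), against 34.5% of all windows. The E2F letters were in 1 of 24 (4.17%) and 7 of 15 (46.7%), against 4.46% of all windows. For 5 genes, Aurka, Kif2c, Mybl2, E2f1 and Cdc6, the start used lay 308 to 3852 bases inside the gene. With only the starts within 250 bases of the outer RefSeq gene start, TTTGAA was in 7 of 21 mitosis (33.3%) and 1 of 13 replication promoters (7.69%), against 16.8% of 23522 windows. There CCAAT was in 17 of 21 (81%) and 10 of 13 (76.9%), against 34.9%, and the E2F letters were in 1 of 21 (4.76%) and 6 of 13 (46.2%), against 4.25%. A match of letters is a description and no proof of a bound site. Examples from both classes are printed 5′ to 3′ with all matches in capitals. They are Cdk1 (chr10:69352913-69353162, minus strand) and Ccnb2 (chr9:70421555-70421804, minus strand), with CHR and CCAAT letters, Mcm5 (chr8:75109259-75109508, plus strand) and Mcm6 (chr1:128359706-128359955, minus strand), with E2F and CCAAT letters, and Rrm2 (chr12:24708004-24708253, plus strand), the most variable gene, with CCAAT letters alone. All 5 have starts within 250 bases of the outer one. Cdk1 is also the 1 mitosis gene with an E2F match.
Cdk1: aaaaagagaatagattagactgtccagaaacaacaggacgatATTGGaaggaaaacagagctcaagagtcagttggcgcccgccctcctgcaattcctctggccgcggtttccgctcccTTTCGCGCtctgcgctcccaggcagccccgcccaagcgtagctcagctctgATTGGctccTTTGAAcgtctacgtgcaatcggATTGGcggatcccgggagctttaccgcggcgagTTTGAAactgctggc
Ccnb2: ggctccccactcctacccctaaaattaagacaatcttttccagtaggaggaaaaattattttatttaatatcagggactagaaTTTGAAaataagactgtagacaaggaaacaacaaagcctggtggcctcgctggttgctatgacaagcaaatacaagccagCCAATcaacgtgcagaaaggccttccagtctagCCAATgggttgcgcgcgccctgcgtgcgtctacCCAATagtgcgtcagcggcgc
Mcm5: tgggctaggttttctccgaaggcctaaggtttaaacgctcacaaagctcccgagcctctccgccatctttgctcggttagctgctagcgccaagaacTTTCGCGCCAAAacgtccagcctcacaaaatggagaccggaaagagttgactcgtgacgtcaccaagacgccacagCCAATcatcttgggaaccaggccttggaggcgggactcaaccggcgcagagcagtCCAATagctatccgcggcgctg
Mcm6: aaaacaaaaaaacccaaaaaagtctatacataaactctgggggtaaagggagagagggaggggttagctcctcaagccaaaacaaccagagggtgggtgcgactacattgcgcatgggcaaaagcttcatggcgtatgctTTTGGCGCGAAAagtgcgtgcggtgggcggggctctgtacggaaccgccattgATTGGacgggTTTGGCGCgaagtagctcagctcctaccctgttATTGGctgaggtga
Rrm2: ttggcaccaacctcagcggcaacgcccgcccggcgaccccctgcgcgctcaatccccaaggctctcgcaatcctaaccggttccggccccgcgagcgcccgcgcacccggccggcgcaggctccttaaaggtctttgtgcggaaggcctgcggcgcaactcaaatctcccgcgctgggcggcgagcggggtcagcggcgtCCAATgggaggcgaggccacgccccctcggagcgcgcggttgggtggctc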

How the data were processed

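Polyadenylated RNA of 16 tumors (8 control, 8 IL-33) was sequenced, and the authors deposited raw counts of reads per gene for each tumor. Per the submitters' processing notes HISAT2, featureCounts and mm10 were used, with versions, annotation and strand setting not given in the sources used here, so reads of antisense or overlapping genes cannot be separated. Groups and replicate numbers came from the labels. Of 22298 gene identifiers, 22255 were paired with symbols of GENCODE M21 (GRCm38). Genes with at least 10 counts over all tumors were tested with edgeR 4.0.16 (R 4.3.3; TMM, glmQLFit, glmQLFTest, Benjamini-Hochberg adjustment over all genes tested), after a test on simulated data. Class levels used log2 CPM with a prior count of 2. Alternatives were DESeq2 1.42.0, limma 3.58.1 voom with sample quality weights, and other scalings and filters. The replicate number as a block and each tumor left out in turn were further alternatives. Leaving out control replicate 4 and IL-33 replicate 7 together was added after seeing the data, as was the count of promoter letters near the outer RefSeq gene start. The members and lists were chosen with earlier results of these data known. Genes named are 1 fixed gene per role or more, the extremes of each class, the genes that changed sign and the 3 smallest p-values of each list, and others, such as Gins2 and Msln, were chosen after their values were seen. Tumors of a group differed by more than sampling noise, the lowest chi-square per degree of freedom of any pair being 9.12.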

Additional observations from a re-analysis of the deposited data

Results flagged for a closer look

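For 42 of the 46 genes and for the level of both classes, IL-33 replicate 7 lay far below the nearest other IL-33 tumor, with a gap to it above Dixon's 95% critical value for 8 tumors, on log2(CPM + 0.5). The class levels, as mean log2 CPM, were 4.00 for the mitosis genes and 4.58 for the replication genes. The proliferation marks in this tumor were Mki67 at 55.4 and Top2a at 55.2 CPM. Of the cyclins and their kinase, it had Cdk1 at 22.5, Ccnb1 at 17.3, Ccnb2 at 14.7 and Ccna2 at 31.0 CPM. The mitotic kinases and survivin were represented by Aurka at 10.9, Aurkb at 13.8, Plk1 at 16.1 and Birc5 at 12.8 CPM. In the checkpoint and anaphase set, the low values were Bub1 at 7.89, Bub1b at 17.8, Ttk at 3.99, Cdc20 at 25.6 and Ube2c at 25.9 CPM. Among kinesins and spindle proteins it held Kif11 at 15.97, Kif23 at 10.9, Kif20a at 16.6, Kif2c at 11.6, Nusap1 at 11.2, Prc1 at 23.9 and Tpx2 at 26.9 CPM. All 7 kinesin and spindle genes of the module were thus among them. At the centromere and kinetochore the same tumor had Cenpe at 12.8, Cenpf at 19.3, Cenpa at 17.2, Ndc80 at 6.38 and Nuf2 at 8.76 CPM. The mitotic transcription factors gave Foxm1 at 19.3 and Mybl2 at 9.54 CPM.

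In the replication class the same tumor was far below the other IL-33 tumors for the G1/S factor and both licensing genes, E2f1 at 10.2, Cdc6 at 4.73 and Cdt1 at 18.4 CPM. The helicase genes low in this tumor were Mcm2 at 41.0, Mcm3 at 31.9, Mcm4 at 36.8, Mcm5 at 34.3 and Mcm6 at 37.8 CPM. Of the clamp, polymerase and primase genes it had Pcna at 71.7 and Prim1 at 8.90 CPM. The genes of the module not far apart by this measure were Mcm7, Gins2, Pola1 and Tyms. For nucleotide supply the values were Rrm1 at 56.0, Rrm2 at 21.5 and Tk1 at 15.4 CPM.

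Control replicate 4 lay as far below the nearest other control tumor for 7 genes, Ccnb1 at 36.6, Kif23 at 22.2, Kif20a at 38.1, Cenpf at 23.9, Mcm2 at 119.8, Mcm4 at 30.3 and Pola1 at 7.74 CPM. In all, 51 of the 96 groups checked had such a tumor, where the critical value alone would give about 1 in 20 by chance. The share of all genes with such a tumor is not given here. IL-33 replicate 7 was the lowest of the 16 tumors for 20.7% of all genes tested. For genes with a mean of at least 10 CPM that share was 33.1%. The genes are not independent of each other, since the same 2 tumors account for all of the 51.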

How the results depend on the processing

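With each tumor left out in turn, 1 to 28 of the 46 fitted changes of the module changed sign, 28 of them without IL-33 replicate 7, 10 without control replicate 2 and at most 7 without any other tumor. At an unadjusted p under 0.05, 0 mitosis genes were called under any setting, and 0 replication genes under any but DESeq2 without IL-33 replicate 7, which called 1 (E2f1). Over all genes the count at an adjusted p under 0.05 was 0 under each setting but DESeq2 without IL-33 replicate 7, which gave 1 (Alas2, adjusted p = 0.0125 in DESeq2 and 0.966 in edgeR). The count of cell cycle repressors was 1 of 21 in edgeR, where 11.2% of all genes were called. It was 2 of 21 in DESeq2 (4.11% of all genes) and in DESeq2 without IL-33 replicate 7 (4%). In limma voom it was also 2 of 21, where 522 genes were higher and 444 lower of 16817. It was 1 to 2 with each tumor left out in turn (2 without IL-33 replicate 6). In each setting that called 2, 1 was higher and 1 was lower with IL-33. The cause of these differences was not tested.

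Over all genes, 1680 were higher and 196 lower at an unadjusted p under 0.05. DESeq2 gave 424 higher, limma voom 522 with 444 lower, and library size alone 101 lower. The filterByExpr setting gave 498 higher, but of 12800 genes tested and not 16817. Without IL-33 replicate 7 edgeR gave 314 and 391 and DESeq2 283 and 390, and without control replicate 4 as well edgeR gave 352 and 349. Fewer were lower without control replicate 4 (119) or IL-33 replicate 5 (128), and more without IL-33 replicate 3 (307). The median log2 fold change ran from -0.15 to 0.08 over the mitosis genes and from -0.20 to 0.04 over the replication genes with each tumor left out in turn, lowest without IL-33 replicate 3 and highest without IL-33 replicate 7. It was 0.08 and 0.01 in limma voom. With library size alone the medians were -0.02 and -0.07, while the median of all genes rose from 0.06 to 0.13.

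The replicate numbers were shared by the groups, and the labels do not say whether they pair the tumors. The correlation of same-numbered tumors, taken on deviations, was over 0.1 in 4 of 8 pairs (-0.32 to 0.35). Of the 8 pairs, 1 matched best with its own number. So few pairs cannot settle whether a number marks a shared origin. With the replicate number as a block, edgeR gave 246 genes higher and 72 lower, 0 members, and medians of -0.15 for the mitosis and -0.16 for the replication genes.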
